A study of Mus musculus with 47 samples.

Results

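Luminal cells of the lactating mouse mammary gland were compared between lactation day 3 (L3) and lactation day 10 (L10), that is between early and established lactation. The comparison rests on 6 of the 46 RNA-seq libraries with values in the series, 3 luminal libraries at L3 and 3 at L10. Libraries were assigned to the groups by their labels, and the comparison itself was chosen with earlier results of these data known. Each library came from one sort of Lin−CD24+CD29lo cells, the luminal gate, from the glands of 4 FVB/N females pooled. The mice carried no engineered allele and received no agent. Females were mated as young adults, and the mothers were killed on day 3 or day 10 after birth. The gates were adjusted from sort to sort, and a further unidentified population seen during lactation was left out of the sort, so that the libraries represent the gated cells and not the whole epithelium.

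In the mammary epithelium, luminal cells line the ducts and alveoli and make milk, while basal (myoepithelial) cells contract to expel it. After birth the alveolar luminal cells switch to full secretion under prolactin and glucocorticoid, once progesterone has fallen. They then make caseins and whey proteins, lactose, and milk fat whose shorter fatty acids are built from glucose inside the cell. A smaller luminal fraction carries the receptors for oestrogen and progesterone and signals to its neighbours through secreted factors such as RANKL, amphiregulin and Wnt4.

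The L3 luminal libraries held 12413569, 11621415 and 8295520 reads for replicates 4, 5 and 6, and the L10 libraries 7777828, 20023054 and 17457370. Values are given as CPM, the reads scaled by the authors to a common effective library size with edgeR, on which 3 reads correspond to between 0.217 and 1.05 CPM in these libraries. The CPM of replicates 4, 5 and 6 summed to 2.24e+06, 1.37e+06 and 2.91e+06 at L3 and to 1.03e+06, 1.45e+06 and 1.51e+06 at L10. A value in CPM is therefore not a share of the reads of its library. The L3 and L10 replicates 4 were sorted on the same date, as were the replicates 5, and the replicates 6 on different dates. All 6 belong to RNA amplification batch 5. The L3 libraries were sequenced on lane 7 and the L10 libraries on lane 8, so that lane and time point cannot be told apart.

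The labelled cell type was checked against its markers. *Krt18*, a keratin of simple epithelia, was at 694, 941 and 437 CPM in the L3 libraries and at 1101, 1109 and 1300 in the L10 libraries, against means of 49.4 and 51.0 CPM in the basal libraries of L3 and L10. *Acta2*, the smooth muscle actin of myoepithelial cells, was between 33.0 and 152 CPM in the 6 luminal libraries, with basal means of 21953 and 17381 CPM. *Krt5*, a basal keratin, was less even, with 50.1 CPM in L3 replicate 6 and 1143 in L10 replicate 5. The sum of the 12 basal markers was 930, 1579 and 584 CPM at L3 and 450, 2833 and 1159 CPM at L10, and *Krt5* was the most abundant of them.

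Markers of other cells were uneven as well. Of 8 endothelial markers, 7 had a lower mean log2 value at L10 (median log2 change -0.85), and none passed the test. Their sum was 183, 619 and 206 CPM at L3 and 145, 567 and 133 CPM at L10. The 3 measured adipocyte markers summed to 31.6, 81.2 and 60.7 CPM at L3 and to 15.3, 66.3 and 25.1 CPM at L10, without a pass. All 9 fibroblast markers had a higher mean log2 value at L10, but none passed the test, and their sum was 31.9, 75.5 and 293 CPM at L3 and 32.2, 563 and 845 CPM at L10. *Col1a1*, the fibroblast marker with the most reads, reached 266 CPM in L10 replicate 6. Of the 6 T and NK cell markers, 3 were in the table. *Cd3e*, a chain of the T cell receptor complex, was at 5.05, 27.8 and 4.56 CPM at L3 and at 7.72, 158 and 69.6 CPM at L10 (adjusted p = 0.12, and 0.041 with the replicate number as a block). *Cd4*, the co-receptor of helper T cells, had 0, 2 and 0 reads at L3 and 26, 82 and 1 reads at L10, where L10 replicate 6 lay within the L3 range. It passed the test (adjusted p = 0.039), but not without L3 replicate 4 (0.104), L3 replicate 6 (0.1205), L10 replicate 4 (0.149) or L10 replicate 5 (0.215), nor in edgeR (0.0996). *Cd8a* was at 0, 15.3 and 0 CPM at L3 and had 0 reads in all 3 L10 libraries. In edgeR none of the 3 markers rose and *Cd8a* fell (adjusted p = 0.0415), which in limma did not pass (0.173). The negative selection of the sort used antibodies to CD45, CD11b, Ly-6G/Ly-6C, Ter-119, CD31 and CD140a, markers of lineages it was set to remove. The part of cells other than luminal ones in the results below was not tested. L10 replicate 4 had the lowest L10 sums of the fibroblast and of the T and NK cell markers, 32.2 and 11.2 CPM.

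**Figure D1:**
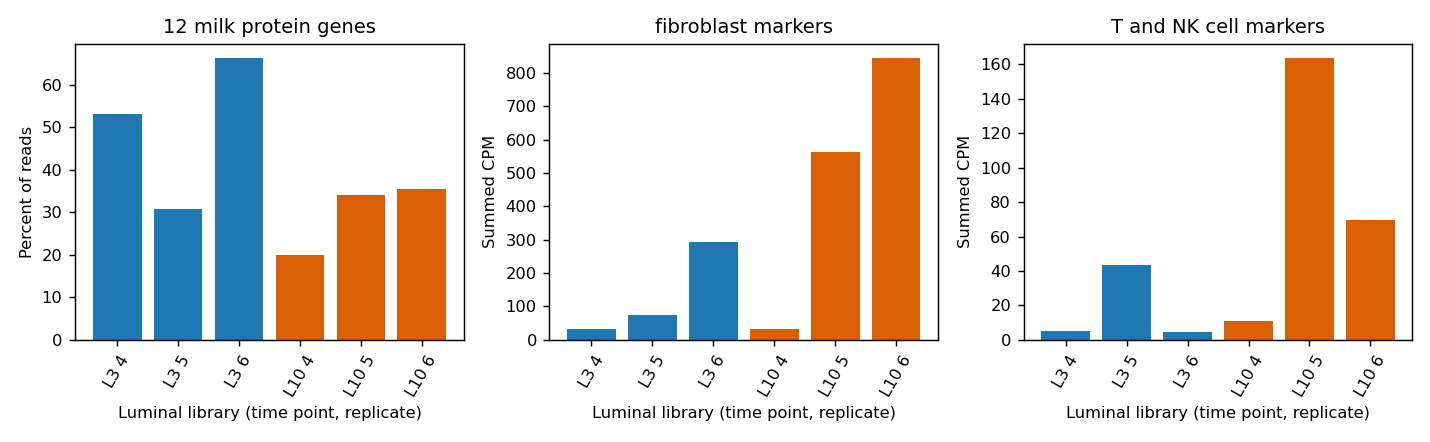
Share of reads taken by the 12 milk protein genes (percent) and summed CPM of the fibroblast and T and NK cell markers, one bar for each luminal library at L3 (blue) and L10 (orange). L3 replicates 4 and 6 had the largest milk protein shares, at 53.2% and 66.3%, and L10 replicates 5 and 6 the most fibroblast marker signal.

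Libraries of the same time point were about as far from each other as from those of the other. R squared of log2 values across genes was 0.861 to 0.902 within a time point and 0.834 to 0.919 between them, and the highest was that of L3 replicate 5 with L10 replicate 5. On the first principal component of the 6 libraries (29.4% of the variance), L3 replicate 6 lay apart at -75.4, and L3 replicate 5 lay at 16.2, nearer to the L10 libraries at 21.9 to 42.6 than to the other L3 libraries. L10 replicate 4 lay apart on the second (24.5% of the variance), at -74.8.

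To ask which genes differ between early and established lactation, moderated tests of limma were made on log2(CPM + 1) over 17078 genes, with the spread estimated from all 46 libraries. The study's threshold, a change of 2-fold or more with a false discovery rate (FDR) under 0.01, called 65 genes (0.381%). Of these, 48 were higher at L10 (0.281%) and 17 lower (0.0995%). With the replicate number as a block, 122 genes were called, including all 65. At an FDR under 0.05, for which rose and fell are used here, 342 genes passed (2.00%), 235 higher (1.38%) and 107 lower (0.627%). The split depends on the scaling: it was 172 higher and 149 lower after median-ratio rescaling, and 350 and 70 when the milk protein genes were removed and the libraries rescaled, which moved the median change of all genes from 0.05 to 0.13.

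These counts rest on the pooled spread and on single libraries. The median SD of a gene's log2 values was 0.429 in the L3 and 0.398 in the L10 luminal libraries, against 0.23 to 0.344 in the other luminal groups. In the basal groups it was 0.252 to 0.378, apart from 0.474 at involution day 2. The pooled spread thus draws mostly on groups less variable than those compared. When the spread was taken from the 6 luminal libraries alone, no gene passed an FDR of 0.05 in limma or in edgeR's quasi-likelihood test, with 1246 and 1207 genes at an unadjusted p under 0.05, and edgeR on the reads of all 46 libraries called 17 genes. Without L3 replicate 5, 209 genes were called, and without L3 replicate 4 or 6, 42 and 36. At an FDR under 0.05 there were 816 genes without L3 replicate 5, and 209, 139 and 229 without L3 replicate 4, L3 replicate 6 and L10 replicate 4.

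*Calca* and *Rspo1* had the largest rises. *Calca* (ENSMUSG00000030669), which encodes calcitonin and the peptide CGRP, was covered by 1, 1 and 2 reads in the L3 libraries, or 0.180, 0.118 and 0.701 CPM. In the L10 libraries it was at 517, 41.5 and 265 CPM. Every L10 library was thus more than an order of magnitude above every L3 library, and L10 replicate 5 was the lowest of the 3. The log2 change was 7.11 (standard error 1.42, adjusted p = 0.0058 from limma), and the ratio of reads, scaled by library size, was 966 with a 95% interval of 377 to 3548 that covers counting error only.

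*Rspo1* (ENSMUSG00000028871), a secreted amplifier of Wnt signalling, had the same order of the L10 libraries. It was at 7.39, 0 and 1.75 CPM at L3 and at 266, 21.0 and 163 CPM at L10, a log2 change of 5.12 (standard error 0.89, adjusted p = 0.0011). *C1qtnf1* (ENSMUSG00000017446), a secreted protein of the C1q and TNF family, was at 2.16, 5.18 and 1.75 CPM at L3 and at 167, 22.7 and 73.4 CPM at L10 (log2 change 4.14, standard error 0.63, adjusted p = 0.00033). *Calca*, *Rspo1* and *C1qtnf1* were each highest in L10 replicate 4, where the fibroblast, T and NK cell and basal marker sums were 32.2, 11.2 and 450 CPM. The part of those cells was not tested. All 3 genes kept an FDR under 0.05 without any 1 of the 6 libraries.

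*Calca* also belongs to the list of hormone-sensing luminal genes, of which 3 of 15 rose, *Calca* included, and none fell, where 1.38% of all genes rose. *Calca* itself was the 1 member called (0.281% of all genes). The number of members past the test was 1 without L3 replicate 4, L3 replicate 6, L10 replicate 4 or L10 replicate 6. It was 5 without L3 replicate 5, beside 816 of all 17078 genes. The median log2 change of the 15 members was 0.32, beside 0.05 over all genes. *Pgr*, the progesterone receptor, was at 1.44, 7.18 and 0.701 CPM at L3 and at 11.7, 17.1 and 29.1 CPM at L10 (log2 change 2.56, standard error 0.69, adjusted p = 0.042). *Tnfsf11*, which encodes RANKL, had a single read in the L3 libraries together and 213 reads at L10, with 18.8, 1.81 and 4.06 CPM in the 3 L10 libraries (adjusted p = 0.042, ratio of reads 109, 95% interval 19.4 to 4340 for counting error only). The groups did not overlap for either gene. In edgeR the adjusted p of *Pgr* was 0.11 and that of *Tnfsf11* 0.036. Both calls were lost with a pseudocount of 5 and with the spread of the 24 luminal libraries.

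The other members of the list varied. *Wnt4*, the Wnt ligand of this cell type, was at 26.5, 50.9 and 5.96 CPM at L3 and at 143, 53.9 and 121 CPM at L10, which did not pass the test (adjusted p = 0.098). *Cited1*, the member with the most reads, was at 481, 434 and 36.1 CPM at L3 and at 354, 213 and 196 CPM at L10, so that L3 replicate 6 alone was low. *Esr1*, the oestrogen receptor, lay between 39.6 and 64.2 CPM in all 6 libraries. The calls of *Pgr* and *Tnfsf11* were lost without most single libraries. For *Pgr* the adjusted p was 0.134 and 0.207 without L3 replicates 4 and 6 and 0.0539, 0.0671 and 0.142 without L10 replicates 4, 5 and 6, and for *Tnfsf11* it was 0.107, 0.0565 and 0.0907 without L3 replicates 4, 5 and 6 and 0.238 and 0.0601 without L10 replicates 4 and 6.

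The other large rises included a kinase and a cadherin. *Camk2a*, the alpha subunit of calcium/calmodulin-dependent kinase II, went from 1, 3 and 0 reads at L3 to 51.1, 11.4 and 18.7 CPM at L10 (log2 change 4.32, standard error 0.73, adjusted p = 0.00075). *Cdh2*, N-cadherin, was at 0.541, 1.30 and 0.701 CPM at L3 and at 20.9, 10.1 and 19.95 CPM at L10 (log2 change 3.24, standard error 0.53, adjusted p = 0.00062). Basal cells express *Cdh2* at means of 75.2 CPM at L3 and 76.3 CPM at L10. The *Cdh2* values of L10 luminal replicates 4 and 6 were nearly equal, where their basal marker sums were 450 and 1159 CPM, and the part of basal cells was not tested.

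*Spock1*, a secreted proteoglycan, had 2.89, 2.36 and 0 CPM at L3 and 16.5, 27.0 and 29.8 CPM at L10 (log2 change 3.39, standard error 0.51, adjusted p = 0.00031). The fibroblast marker sums were also higher in L10 replicates 5 and 6, and their part in this rise was not tested. *Dclk1*, a doublecortin-like kinase, *Pik3ap1*, an adaptor of PI 3-kinase, and *Mal*, a proteolipid of apical membrane transport, rose by 3.00, 3.26 and 3.04 on the log2 scale. For *Pik3ap1* and *Mal* the adjusted p was 0.0585 and 0.0811 without L3 replicate 6, and 0.065 and 0.099 in edgeR.

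**Figure D2:**
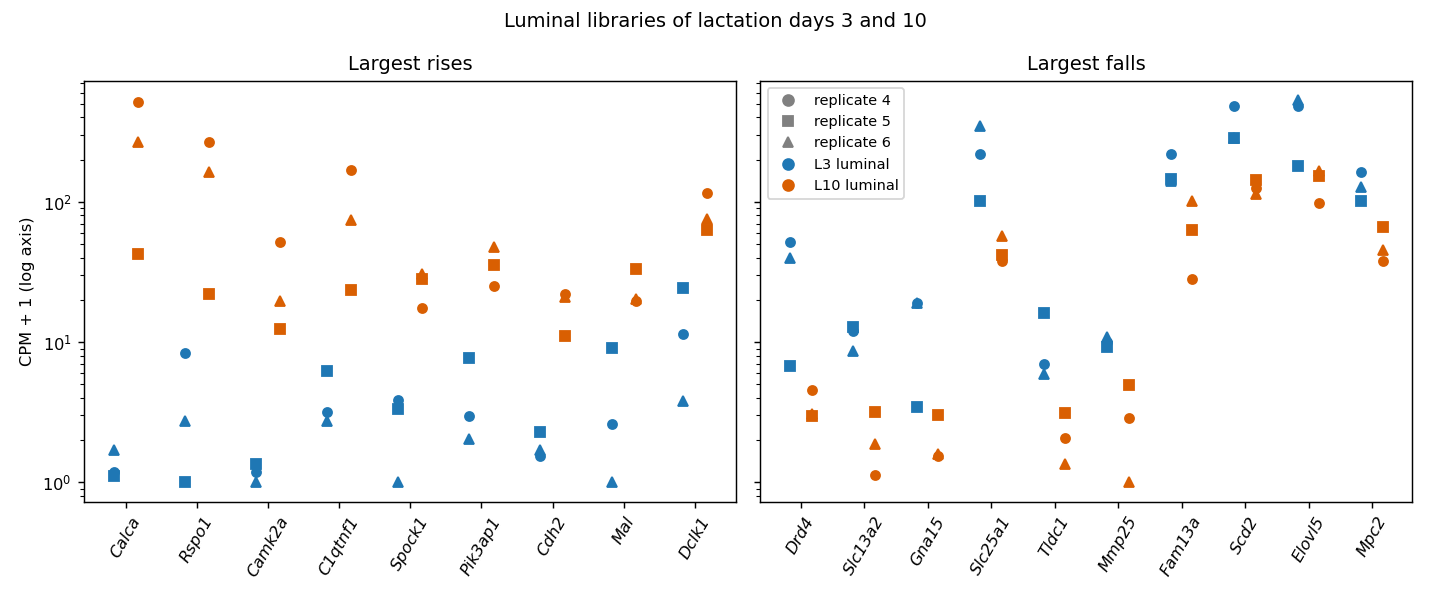
CPM + 1 on a log axis in the 6 luminal libraries for 9 of the 10 largest rises and the 10 largest falls among called genes whose groups do not overlap; blue marks L3, orange L10, and the marker shape the replicate number. All 3 L10 values lie on one side of all 3 L3 values by the rule that chose the genes, and *Calca* has the widest gap.

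Several of the genes that fell supply carbon for fatty acid synthesis or modify fatty acids. *Slc25a1* (ENSMUSG00000003528), the mitochondrial citrate carrier that delivers the carbon for lipogenesis to the cytosol, was at 217, 100 and 345 CPM at L3 and at 37.12, 41.0 and 55.9 CPM at L10. All L10 values were below all L3 values, and L3 replicate 5 was the lowest of its group. It fell by 2.13 on the log2 scale (standard error 0.27, adjusted p = 1.3e-05), and without any 1 of the 6 libraries the adjusted p was at most 0.00058. *Mpc2*, a subunit of the mitochondrial pyruvate carrier, was at 162, 101 and 126 CPM at L3 and at 37.0, 64.8 and 44.7 CPM at L10 (log2 change -1.40, standard error 0.23, adjusted p = 0.00064).

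Of the 29 genes of fatty acid and triglyceride synthesis, 5 fell and none rose, and 3 were called lower (0.0995% of all genes). The count that fell was 8 with the replicate block and 3 in edgeR. The number of members past the test in either direction was 14 without L3 replicate 5, 2 without L3 replicate 4 or 6, and 3 without L10 replicate 4. Of all 17078 genes, 816, 209, 139 and 229 passed in these leave-outs, in that order. The median log2 change of the list was -0.96, 26 of the 29 had a lower mean log2 value at L10, and for 10 the groups did not overlap with L10 below. Over all genes, 0.627% fell and L10 was below without overlap for 4.80%. The direction of the median was the same after median-ratio rescaling (-1.05) and with the milk protein genes removed (-0.85).

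*Elovl5*, an elongase of polyunsaturated fatty acids, was at 484, 178 and 530 CPM at L3 and at 97.5, 151 and 165 CPM at L10 (log2 change -1.40, standard error 0.28, adjusted p = 0.0066). *Scd2*, a stearoyl-CoA desaturase, was at 479, 284 and 284 CPM at L3 and at 124, 142 and 113 CPM at L10 (log2 change -1.42, standard error 0.30, adjusted p = 0.0084). Its paralogue *Scd1*, the list member with the most reads, was at 14835, 7757 and 16765 CPM at L3 and at 3739, 3087 and 4919 CPM at L10, also without overlap, and missed the threshold (adjusted p = 0.052, and 0.042 with the replicate number as a block).

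*Acss2*, the cytosolic acetyl-CoA synthetase, was at 66.7, 39.1 and 69.8 CPM at L3 and at 5.46, 29.0 and 31.2 CPM at L10 (adjusted p = 0.036). *Acsl4*, a long-chain acyl-CoA synthetase named because it is the fifth gene of the list that fell, was at 350, 249 and 272 CPM at L3 and at 91.9, 169 and 164 CPM at L10 (adjusted p = 0.049). *Fasn*, fatty acid synthase, overlapped between the groups, with 8195, 2650 and 10083 CPM at L3 and 2517, 2462 and 5006 CPM at L10 (adjusted p = 0.35). Only for *Dgat2*, *Agpat2* and *Vldlr* was the mean log2 value higher at L10, and for *Dgat2*, which adds the last acyl chain to triglyceride, all L10 values were above all L3 values (8.46 to 15.8 against 4.56 to 5.77 CPM, adjusted p = 0.12).

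The adjusted p of *Elovl5* was 0.0673 without L3 replicate 6 and that of *Scd2* 0.061 without L3 replicate 4. Those of *Acss2* and *Acsl4* were 0.112 and 0.179 without L3 replicate 4, 0.140 and 0.112 without L3 replicate 6, and 0.289 and 0.238 without L10 replicate 4, and that of *Acsl4* was 0.0555 without L10 replicate 6. In edgeR they were 0.111 and 0.0861.

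**Figure D3:**
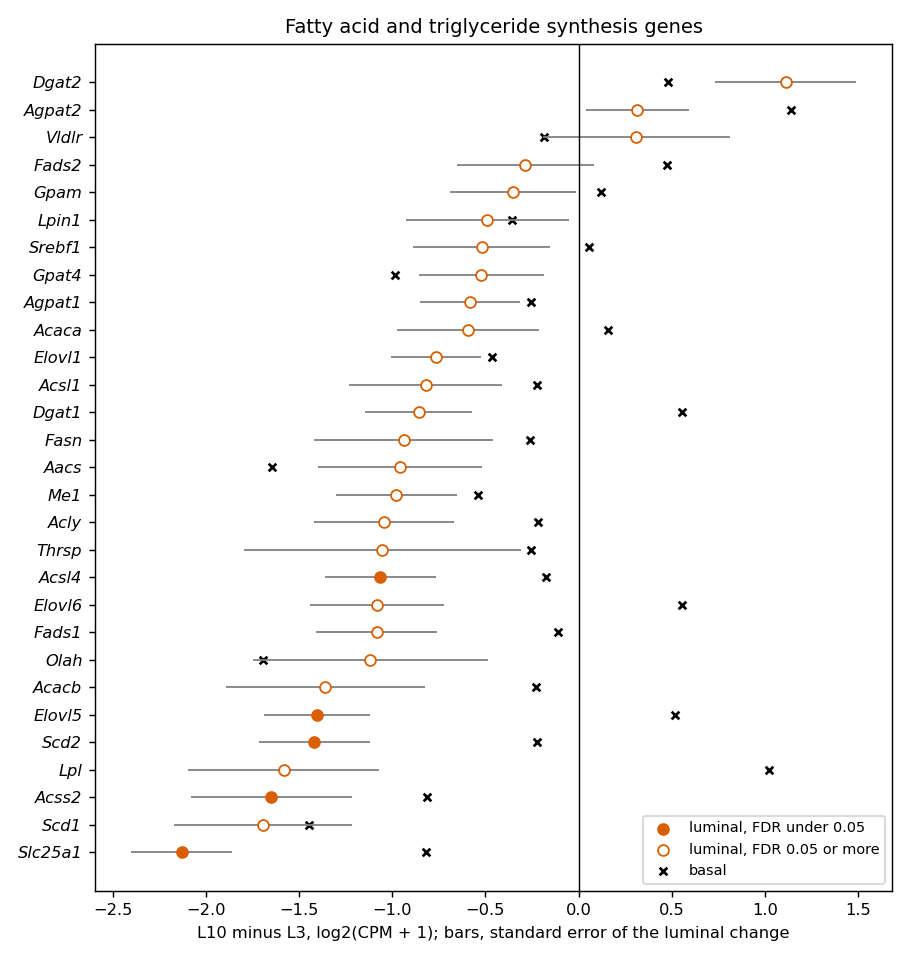
Change from L3 to L10 on the log2(CPM + 1) scale of the 29 fatty acid and triglyceride synthesis genes in luminal cells (circles, filled where the FDR was under 0.05; bars, standard error) and in basal cells (crosses). In luminal cells 26 of the 29 lie below 0, with *Slc25a1* lowest at -2.13.

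Of 26 measured genes of cholesterol synthesis and uptake, 1 fell and none rose, against 0.627% of all genes that fell, 23 had a lower mean log2 value at L10, and the median log2 change was -0.37, beside 0.05 over all genes. The number past the test was 2 without L3 replicate 5, L10 replicate 5 or L10 replicate 6, and 0 without L3 replicate 6 or L10 replicate 4. Of all 17078 genes, 816, 354, 269, 139 and 229 passed in these leave-outs, in that order. The gene that fell was *Acat2*, the cytosolic acetoacetyl-CoA thiolase at the start of the pathway, at 32.7, 23.1 and 81.4 CPM at L3 and 6.25, 21.8 and 13.3 CPM at L10 (log2 change -1.61, standard error 0.35, adjusted p = 0.012, 0.133 without L3 replicate 6 and 0.1 without L10 replicate 4). *Insig1*, which holds back the processing of the lipogenic transcription factors of the SREBP family, was at 69.4, 33.0 and 49.8 CPM at L3 and 5.19, 30.9 and 27.4 CPM at L10 (adjusted p = 0.07). In limma *Insig1* passed with sort date as a block (adjusted p = 0.0465) and with a pseudocount of 5 (0.0367).

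SREBP factors are known to bind sterol regulatory elements, and the promoters of the lipid genes that fell were searched for the core of that element, CACNCCAC, on both strands. RefSeq windows from 250 bases before to 50 after the start, on GRCm38.p6, were matched by symbol for 5 of the 6 genes, and *Scd2* was not matched. The core was found in *Slc25a1*, *Acsl4* and *Acat2* and not in *Elovl5* or *Acss2*. It occurs in 6.24% of all 32851 windows and in at least 1 window of 7.12% of 27025 genes, in 4 of 22 matched genes of the fatty acid list and in 2 of 18 of the cholesterol list. A match is a description and not a measured site. The windows with a match are shown because their genes fell together, with the core in capitals, in lower case elsewhere, 5′ to 3′ on the gene's strand, at chr16:17928170-17928469, chrX:142390486-142390785 and chr17:12960676-12960975, all on the minus strand.
Slc25a1: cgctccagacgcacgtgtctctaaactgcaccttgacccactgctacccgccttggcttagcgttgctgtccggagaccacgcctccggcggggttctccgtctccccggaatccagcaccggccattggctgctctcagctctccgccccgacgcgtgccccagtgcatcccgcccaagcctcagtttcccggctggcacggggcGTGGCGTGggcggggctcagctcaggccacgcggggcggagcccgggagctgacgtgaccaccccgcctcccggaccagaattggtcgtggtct
Acsl4: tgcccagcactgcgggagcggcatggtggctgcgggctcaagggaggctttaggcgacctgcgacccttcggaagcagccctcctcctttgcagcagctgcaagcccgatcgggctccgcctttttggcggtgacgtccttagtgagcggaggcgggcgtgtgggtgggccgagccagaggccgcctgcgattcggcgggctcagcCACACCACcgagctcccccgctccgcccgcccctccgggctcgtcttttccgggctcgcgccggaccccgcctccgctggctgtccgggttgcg
Acat2: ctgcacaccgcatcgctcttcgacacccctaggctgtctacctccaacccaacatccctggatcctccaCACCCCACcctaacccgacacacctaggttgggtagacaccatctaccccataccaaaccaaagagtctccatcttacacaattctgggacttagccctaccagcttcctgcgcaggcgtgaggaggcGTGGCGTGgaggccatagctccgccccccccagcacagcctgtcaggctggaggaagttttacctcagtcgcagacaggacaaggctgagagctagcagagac

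The other large falls were those of *Drd4*, *Gna15*, *Slc13a2*, *Mmp25*, *Tldc1* and *Fam13a*. *Drd4*, a dopamine receptor, was at 51.1, 5.77 and 38.9 CPM at L3 and at 3.59, 1.96 and 2.07 CPM at L10 (log2 change -2.80, standard error 0.51, adjusted p = 0.002). *Gna15*, a G protein alpha subunit, was at 17.9, 2.47 and 17.9 CPM at L3 and at 0.532, 2.03 and 0.604 CPM at L10 (log2 change -2.46, standard error 0.42, adjusted p = 0.00089). In both, L3 replicate 5 stood just above the L10 libraries and well below the other L3 libraries.

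*Slc13a2*, a cotransporter of dicarboxylates and citrate, was even within L3, at 11.0, 11.8 and 7.71 CPM, and had 1, 30 and 10 reads at L10 (log2 change -2.55, standard error 0.49, adjusted p = 0.0038). *Mmp25*, a membrane-bound metalloproteinase, *Tldc1* and *Fam13a* fell by 2.05, 2.09 and 1.55 on the log2 scale, with adjusted p of 0.0086, 0.0084 and 0.0054. For *Drd4*, *Slc13a2* and *Mmp25* the adjusted p in edgeR was 0.064, 0.137 and 0.395, and with a pseudocount of 0.1 it was 0.0806, 0.0647 and 0.146 from limma. Without 1 library the adjusted p was 0.081 for *Mmp25* (L10 replicate 6) and 0.0645 for *Fam13a* (L10 replicate 4).

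The milk protein genes did not pass the test. All 12 had a lower mean log2 value at L10, with a median log2 change of -1.50, and none fell at an FDR under 0.05. *Lpo* passed without L3 replicate 5, with sort date as a block and with a pseudocount of 5. *Csn2*, beta-casein, took the most reads, at 512152, 188022 and 688943 CPM at L3 and at 99220, 222636 and 260625 CPM at L10. These are scaled values and not shares of the reads. L3 replicate 5 lay below 2 of the L10 libraries, so that the groups overlapped (log2 change -1.18, standard error 0.84, adjusted p = 0.55). The same order held for *Csn1s1* and the whey acidic protein gene *Wap*, at 10495 CPM in L3 replicate 5 and 41167 and 109769 CPM in the other L3 libraries, against 2803, 11476 and 15849 CPM at L10 (log2 change -2.18, standard error 1.04, adjusted p = 0.30).

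*Csn1s2a*, *Csn1s2b* and *Csn3*, the other casein genes, had log2 changes of -1.65, -1.76 and -1.54, and *Wfdc18* -0.80. For 4 of the 12 genes, against 4.80% of all genes, L10 was below L3 without overlap: *Lalba*, the alpha-lactalbumin of lactose synthase, *Glycam1*, *Lpo* and *Trf*. *Lalba* was at 479, 319 and 260 CPM at L3 and at 50.6, 180 and 209 CPM at L10 (adjusted p = 0.43), and *Lpo*, lactoperoxidase, had the smallest adjusted p of the list, 0.083. In limma *Lpo* passed with sort date as a block (adjusted p = 0.0353) and with a pseudocount of 5 (0.0138). *Trf* shares 63.5% of its exon bases with another annotated gene, so that its reads are uncertain. *Ltf*, lactoferrin, had nearly equal means of 8276 ± 2339 and 8830 ± 5300 CPM (SD, n = 3).

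Together the 12 genes took 53.2%, 30.8% and 66.3% of the reads at L3 and 19.9%, 34.1% and 35.5% at L10, or 50.1 ± 17.97% and 29.9 ± 8.63% (SD, n = 3). The difference of -20.2 percentage points, larger than either SD, had p = 0.30 in a two-sided exact permutation test, for which the smallest possible value is 0.10, and L3 replicate 5 lay below 2 of the L10 libraries. It was -12.1 without L3 replicate 6 and -29.9 without L3 replicate 5. The 10 most abundant genes of each library took 53.8 ± 16.3% and 33.3 ± 7.32% (SD, n = 3; exact permutation p = 0.30), a difference of -20.45 points that was -12.95 without L3 replicate 6. In bulk libraries, fewer cells of a kind and less RNA in each cannot be told apart.

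Genes of the rest of milk secretion were mostly lower at L10 without passing. None of the 11 milk fat globule genes, 18 genes of lactose synthesis and glucose use, 32 of endoplasmic reticulum folding and export and 19 of amino acid transport passed in either direction, where 2.00% of all genes passed. Their median log2 changes were -0.77, -0.36, -0.14 and -0.08, and -0.66, -0.15, -0.04 and 0.02 with the milk protein genes removed. Without L3 replicate 5, 1, 3, 2 and 1 of their members passed, beside 816 of all 17078 genes. In amino acid transport, 1 gene also passed without L3 replicate 4 or L10 replicate 5, beside 209 and 354 of all genes. *B4galt1*, the catalytic subunit of lactose synthase, was at 2249, 1037 and 1791 CPM at L3 and at 631, 993 and 1141 CPM at L10 (adjusted p = 0.11). *Cidea*, a lipid droplet protein of milk fat secretion, was at 367, 129 and 630 CPM at L3 and at 29.3, 191 and 166 CPM at L10 (adjusted p = 0.22). *G6pdx*, which makes NADPH in the pentose phosphate pathway, was lower without overlap (adjusted p = 0.054, and 0.041 with the replicate number as a block).

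Of 22 genes of calcium, phosphate and metal transport, 1 fell and none rose, where 0.627% of all genes fell. The number past the test was 5 without L3 replicate 5 and 2 without L10 replicate 6, beside 816 and 269 of all 17078 genes. It was 0 without L3 replicate 4, L3 replicate 6 or L10 replicate 4. The gene that fell was *Atp2c1*, the calcium and manganese pump of the Golgi, at 370, 287 and 348 CPM at L3 and at 152, 191 and 184 CPM at L10 (log2 change -0.93, standard error 0.23, adjusted p = 0.028), a gene with 19.0% of its exon bases shared with another. *Tfrc*, the transferrin receptor, was at 352, 113 and 356 CPM at L3 and 99.9, 99.3 and 83.1 CPM at L10 (adjusted p = 0.071, 0.0248 with the spread of the 24 luminal libraries), and *Slc30a2*, the zinc exporter of secretory vesicles, missed the threshold (adjusted p = 0.071) and passed with the replicate block (0.020), with a pseudocount of 5 (0.0351) and without L3 replicate 5 (0.0068).

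Of 23 genes of prolactin, growth hormone and insulin signalling, 1 fell (0.627% of all genes) and none rose, with a median log2 change of 0.12. This median was 0.02 after median-ratio rescaling and 0.23 with the milk protein genes removed. None of the 23 genes passed in edgeR, nor without L3 replicate 4, L3 replicate 6 or L10 replicate 4. Without L3 replicate 5 or L10 replicate 6, 2 passed, beside 816 and 269 of all 17078 genes. *Ghr*, the growth hormone receptor, was at 165, 114 and 103 CPM at L3 and at 24.1, 71.8 and 62.5 CPM at L10 (log2 change -1.36, standard error 0.37, adjusted p = 0.043). Without L3 replicate 4, L3 replicate 6 or L10 replicate 4, the adjusted p was 0.174, 0.0757 and 0.267 for *Ghr* and 0.0977, 0.0949 and 0.107 for *Atp2c1*. In edgeR that of *Ghr* was 0.093.

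Of the 18 luminal progenitor and keratin genes, 2 rose and none fell (1 in edgeR), against 1.38% of all genes that rose. Of the 18, 14 had a higher mean log2 value at L10, and for 7 all L10 values were above all L3 values, where 7.29% of all genes were so. The median log2 change was 0.76. *Krt8*, *Krt18*, *Krt19* and *Cdh1*, the keratins and the cadherin of simple epithelia, did not overlap but did not pass the test (adjusted p = 0.35, 0.50, 0.33 and 0.20). *Itga2*, the integrin alpha 2 chain, was at 4.69, 17.7 and 3.86 CPM at L3 and at 36.2, 23.9 and 21.4 CPM at L10 (adjusted p = 0.024), and *Krt23* was at 0.722, 1.41 and 0 CPM at L3 and at 2.00, 8.41 and 12.8 CPM at L10 (adjusted p = 0.021). The adjusted p of *Itga2* was 0.109, 0.160 and 0.101 without L3 replicate 4, L3 replicate 6 and L10 replicate 4, and that of *Krt23* 0.122, 0.0626 and 0.115 without L3 replicate 6 and L10 replicates 5 and 6. That of *Itga2* was 0.0875 in edgeR, and that of *Krt23* 0.0931 with a pseudocount of 5. The basal mean of *Krt23* at L3, given further below, was above every luminal value listed here. L10 replicates 5 and 6, where *Krt23* was highest, had basal marker sums of 2833 and 1159 CPM, against 450 CPM in L10 replicate 4. The part of basal cells in this rise was not tested. The number of the 18 past the test was 0 without L3 replicate 6 and 1 without L3 replicate 4 or any 1 of the L10 libraries.

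Of 38 genes of mitosis and DNA replication, 36 had a higher mean log2 value at L10, with a median log2 change of 0.87. For 7 of them all L10 values were above all L3 values (7.29% of all genes), and 1 rose (1.38% of all genes). The number past the test was 2 with the replicate block and in edgeR, 2 without L10 replicate 5 and 4 without L10 replicate 6. It was 0 without L3 replicate 6 or L10 replicate 4. Of all 17078 genes, 477 passed with the replicate block, 202 in edgeR, and 354, 269, 139 and 229 in these leave-outs, in that order. The gene that rose was *Ccnd1*, cyclin D1 of the G1 phase, at 88.9, 134 and 31.9 CPM at L3 and at 449, 302 and 267 CPM at L10 (log2 change 2.17, standard error 0.52, adjusted p = 0.021, 0.171 without L3 replicate 6 and 0.0858 without L10 replicate 4). Its exons overlap those of other annotated genes over 23.4% of their bases. *Mcm2*, a subunit of the replicative helicase, was at 8.30, 6.71 and 8.77 CPM at L3 and at 69.6, 17.98 and 17.0 CPM at L10 (adjusted p = 0.064, and 0.048 with the replicate number as a block). The summed CPM of the list was 432, 545 and 516 at L3 and 1795, 930 and 761 at L10, so that L10 replicate 4 was the highest. *Mki67*, the proliferation marker, overlapped between the groups, at 77.9, 99.0 and 214 CPM at L3 and 298, 153 and 148 CPM at L10.

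Defence genes were uneven. Of 25 genes of the acute phase and of milk defence, 1 rose (1.38% of all genes) and none fell: *Il1rn*, the antagonist of the interleukin 1 receptor, at 0.180, 8.59 and 2.10 CPM at L3 and at 13.7, 40.7 and 23.1 CPM at L10 (log2 change 2.91, standard error 0.75, adjusted p = 0.032). Without L3 replicate 4 or 6 or L10 replicate 5 or 6, the adjusted p was 0.194, 0.0977, 0.104 and 0.0672, and in edgeR it was 0.137. Of the list, 3 members passed without L3 replicate 5, beside 816 of all 17078 genes, and none without L3 replicate 4, L3 replicate 6 or L10 replicate 6. *C3*, complement component 3, was at 717, 773 and 378 CPM at L3 and at 6667, 716 and 4027 CPM at L10, so that 1 L10 library was within the L3 range (adjusted p = 0.15). In limma *C3* passed with the spread of the 24 luminal libraries (adjusted p = 0.0297) and without L10 replicate 5 (0.0325). Of 18 interferon response genes none passed, although for 5 all L10 values were above all L3 values (7.29% of all genes), and the median log2 change was 0.66. In the main fit 2.00% of all genes passed. Without L10 replicate 5, 2 members passed beside 354 of all 17078 genes, and without L3 replicate 5, 1 beside 816.

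No gene passed among the 76 nuclear-encoded respiratory chain genes, 22 mitochondrially encoded transcripts, 79 cytosolic ribosomal proteins, 12 tight junction genes, 19 clock genes, 22 genes of milk stasis and early involution and 23 immediate early and stress genes, where 2.00% of all genes passed. Without 1 library, 1 respiratory chain gene (L3 replicate 5 or L10 replicate 4) and 1 mitochondrial transcript (L10 replicate 5) passed. The median log2 changes of the first 3 were -0.32, -0.64 and -0.07, and -0.21, -0.58 and 0.03 with the milk protein genes removed. In these 3 lists 68, 18 and 45 members had a lower mean log2 value at L10. For 16, 7 and 7 members L10 was below L3 without overlap, against 4.80% of all genes. Of the 12 tight junction genes, 10 had a higher mean log2 value at L10, with a median log2 change of 0.41. For 1 of them all L10 values were above all L3 values (7.29% of all genes). *mt-Cytb*, a subunit of respiratory complex III, was at 13046, 15287 and 18520 CPM at L3 and at 6210, 8878 and 6953 CPM at L10, without overlap (adjusted p = 0.21).

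**Figure D4:**
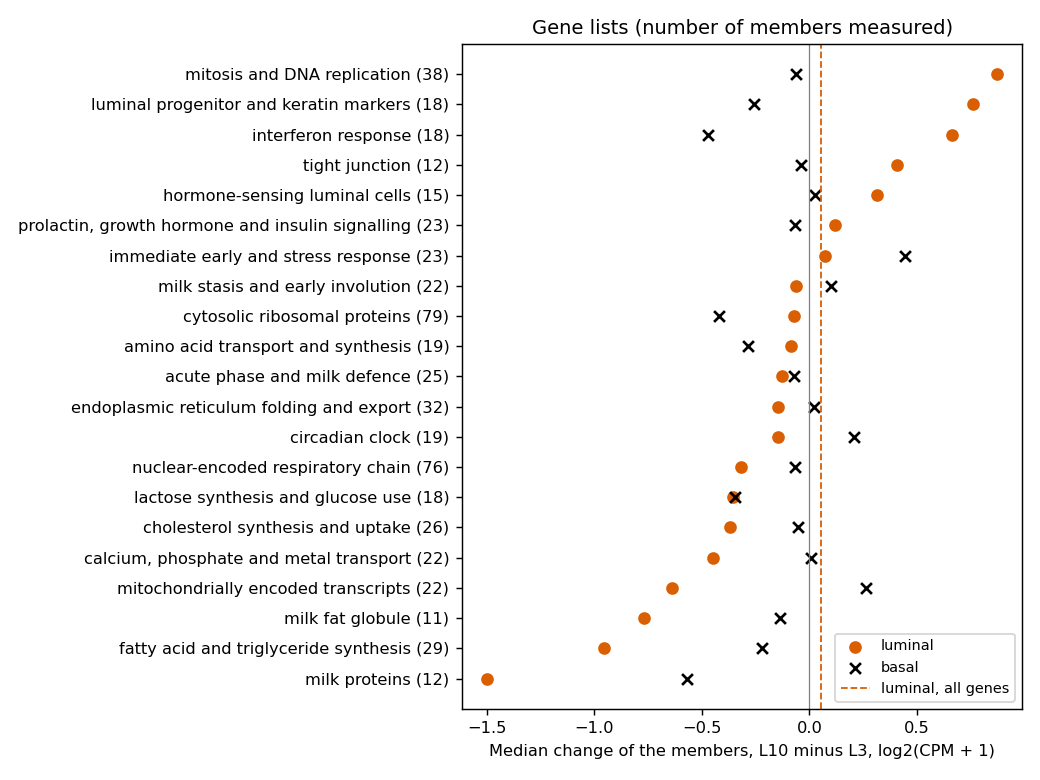
Median change from L3 to L10, on the log2(CPM + 1) scale, of the members of each of the 21 pathway lists in luminal cells (orange) and in basal cells (crosses), with the luminal median of all genes as a dashed line at 0.05. Among these lists, which leave out the markers of other cell types, milk proteins and fatty acid genes have the lowest luminal medians, at -1.50 and -0.96, and mitosis genes the highest, at 0.87.

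The luminal libraries of the other time points show where these levels stand in the reproductive cycle: 10 weeks (W10) and 4 months (M4) of age without pregnancy, pregnancy days 3.5 and 14.5, day 2 of involution after forced weaning (Id2), and week 4 of involution (Iw4). *Calca* had luminal means of 134 ± 59.2 and 130 ± 85.0 CPM at pregnancy days 3.5 and 14.5, 0.333 ± 0.320 at L3, 274 ± 238 at L10, 1.94 ± 1.88 at Id2 and 212 ± 175 at Iw4 (SD, n = 3). *Rspo1* was at 615 ± 175 CPM at pregnancy day 14.5, 3.05 ± 3.86 at L3, 150 ± 123 at L10, 1.44 ± 0.624 at Id2 and 95.9 ± 85.5 at Iw4 (SD, n = 3). Among the time points given here, L3 and Id2 were the lowest for both genes. Of the 48 genes called higher at L10, L3 had the lowest of the 8 luminal means for 37, and L10 the highest for 20, beside 3025 and 2458 of all 17078 genes. The genes were chosen for L3 being below L10, so that nothing is read from these counts.

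The lipid genes *Slc25a1* and *Scd2* were high at L3 but not at Id2. *Slc25a1* had luminal means of 31.5 ± 1.46 CPM at pregnancy day 14.5, 221 ± 123 at L3, 44.7 ± 9.94 at L10 and 53.4 ± 9.06 at Id2, and *Scd2* of 38.4, 349, 126 and 116 CPM at the same time points. The L10 values of both were near those of Id2 and below every L3 value. L3 had the highest of the 8 luminal means for 13 of the 17 genes called lower at L10, beside 2595 of all genes, and these genes were likewise chosen for that direction.

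**Figure D5:**
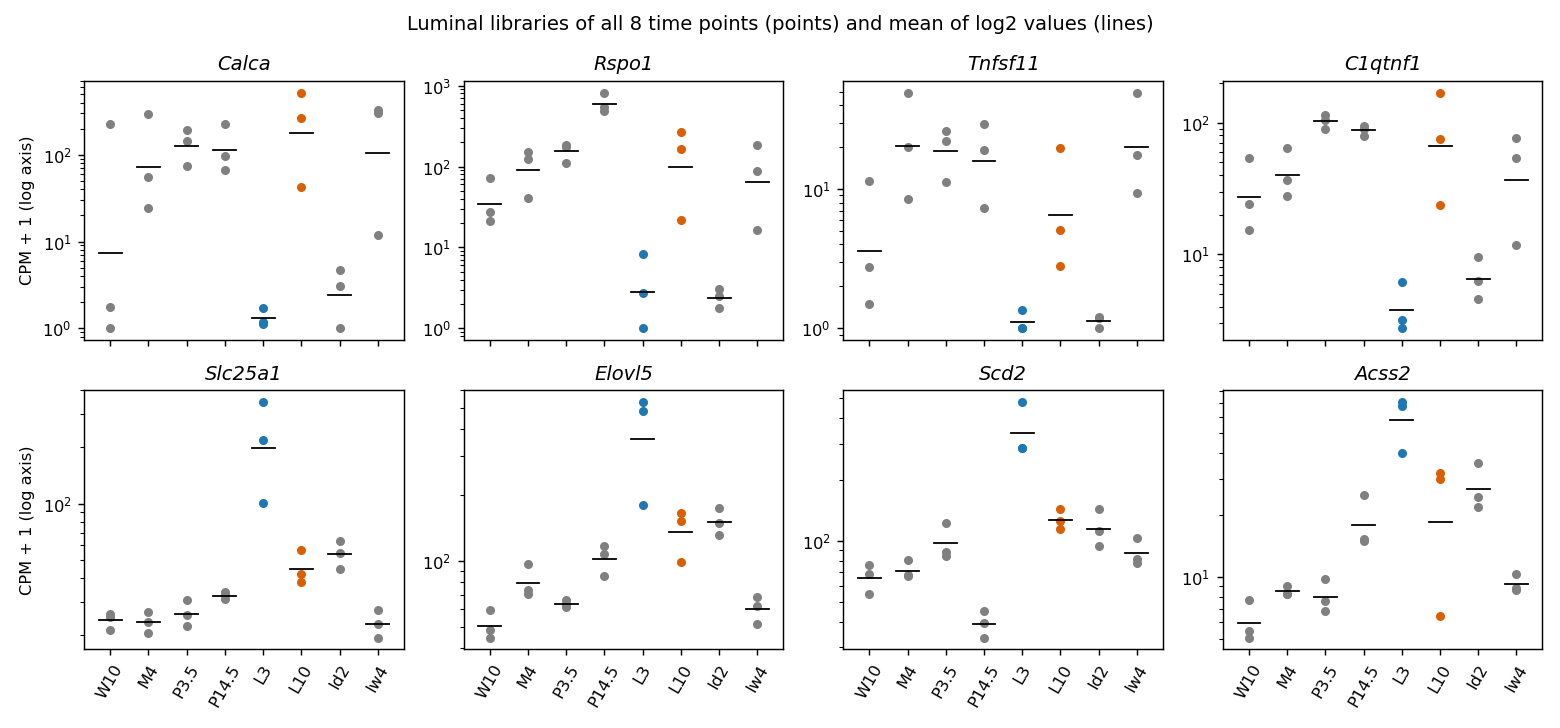
CPM + 1 on a log axis in every luminal library of the 8 time points (points; L3 blue, L10 orange) and the mean of the log2 values (lines) for 4 signalling genes that rose and 4 lipid genes that fell. The 3 L3 libraries are near the bottom of the range for *Calca*, *Rspo1*, *Tnfsf11* and *C1qtnf1*, with Id2 close by, and near its top for the lipid genes, where 1 L3 library comes nearer to L10. For *Rspo1*, L3 replicate 4 lies above the Id2 mean.

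Basal cells from the same sort dates, with 3 libraries at L3 and 2 at L10, were used to ask whether these changes differ between the cell types. Between L3 and L10, 699 genes passed an FDR of 0.05 in basal cells (4.09%). The luminal change differed from the basal change for 324 genes (1.90%), a test that shares the luminal libraries with the results above. Luminal and basal libraries also share sort dates, and with sort date as a block 625 genes passed. Leaving out 1 of the 2 basal L10 libraries gave 1144 genes (without replicate 5) or 58 (without replicate 6), and there were 511 without L3 luminal replicate 5 and 490 without L3 basal replicate 6.

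Among the genes described, *Rspo1*, *Spock1*, *Cdh2*, *Mal*, *Krt23* and *Cd4* had a higher change in luminal than in basal cells, and *Elovl5*, *Acat2* and *Tfrc* a lower one. *Rspo1* had basal means of 5.50 and 4.58 CPM at L3 and L10 and a difference of log2 changes of 5.50 (standard error 1.33, adjusted p = 0.024). Among the leave-outs that keep both basal L10 libraries, this difference did not pass without L3 basal replicate 4 (0.0503), L10 luminal replicate 4 (0.0634) or L10 luminal replicate 6 (0.051). Leaving out L10 basal replicate 6 keeps a single library in that group, and this fit is described further below for *Rspo1* and *Elovl5*. *Elovl5* had basal means of 139 and 198 CPM and a difference of -1.92 (standard error 0.43, adjusted p = 0.014). For *Calca* and *Slc25a1* the differences, 7.01 and -1.31, did not pass the test (adjusted p = 0.076 and 0.081). With the sort date block that of *Calca* passed (0.034) and that of *Slc25a1* did not (0.053).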

How the data were processed

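Luminal RNA of 3 libraries at L3 and 3 at L10 was compared within a table of 46 libraries and 17078 genes (1 of the 47 samples described had no values). RNA (5 ng) was amplified and sequenced. The authors used GSNAP for alignment to the mouse genome (NCBI build 37), HTSeq for counts per gene and edgeR for normalization. The deposited values are a normalized signal, reads scaled to a common effective library size, called CPM here. They were whole multiples of 1 read in 100% of values (tolerance 0.01), so that reads could be recovered. Genes below 1 CPM in 3 samples had been removed by the authors, as had genes with very many reads that varied little between samples. Read totals and shares of the reads refer to the genes kept. No column of authors' comparisons was used.

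Values were tested as log2(CPM + 1) with limma 3.58.1 (R 4.3.3), with trend, in a model of 16 conditions over 46 libraries without a block, with Benjamini-Hochberg adjustment over all genes; fold changes on this scale understate the change of low genes. The difference of luminal and basal change was tested in the same model. Counts were tested with edgeR 4.0.16 on the recovered reads as an alternative. Scripts were tested on simulated data. Shares used exact permutation tests in scipy 1.17.1. The labels give replicates as separate sorts.

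The labels give replicates 4 and 5 of L3 and L10 a shared sort date. Deviations of same-numbered libraries from their group means correlated at 0.0973, 0.222 and 0.11 (over genes of at least 5 CPM, 0.113, 0.26 and 0.147). Those of other pairs correlated at 0.0105 or below. Deviations from a group mean cancel out within the group, so positive same-number values push the other pairs down. The other pairs are therefore no separate evidence of pairing. The block by number rests on the small same-number values, and only replicates 4 and 5 share a sort date. The main model had no block, and blocked values are given where they change a call.

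Genes named were the 10 largest rises and 10 largest falls among called genes without overlap and with a mean of at least 5 CPM in the higher group, the most abundant member and the 4 with the smallest p of each list, every milk protein and the markers used as label checks. *Acsl4*, *Fasn*, *Dgat2*, *Agpat2*, *Vldlr*, *Esr1* and *Mki67* were chosen after their values were seen. Of the largest rises, 1 is not reported here. The comparison and the lists were chosen with earlier results of these data known. Intervals on reads cover counting error only. Promoter windows are from RefSeq (GRCm38.p6), a different build from that of the alignment, and no coordinates of the alignment build are given.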

Additional observations from a re-analysis of the deposited data

Results flagged for a closer look

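For 10 named genes, the change from L3 to L10 differed between luminal and basal cells (limma, difference of log2 changes, adjusted p under an FDR of 0.05). The basal arm holds 3 libraries at L3 and 2 at L10. Groups of 3 libraries were not searched for single distant libraries.

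Among genes that rose in luminal cells, the difference was 5.50 for *Rspo1* (adjusted p = 0.024), 4.43 for *Krt23* (adjusted p = 0.0032), 4.13 for *Spock1* (adjusted p = 0.0037), 4.02 for *Mal* (adjusted p = 0.018), 3.23 for *Cdh2* (adjusted p = 0.027) and 2.42 for *Cd4* (adjusted p = 0.035). *Krt23* also fell in basal cells, from a mean of 48.5 to 10.6 CPM (adjusted p = 0.021). *Cd4* rests on 2 reads in the L3 luminal libraries together and on 1 in L10 replicate 6.

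Among genes that fell in luminal cells, the difference was -1.92 for *Elovl5* (adjusted p = 0.014) and -2.38 for *Acat2* (adjusted p = 0.014). Their basal log2 changes were 0.52 and 0.77. For *Tfrc* and *Pthlh*, the parathyroid hormone-related protein, the luminal change did not pass (adjusted p = 0.071 and 0.065) and the difference was -2.29 and 2.59 (adjusted p = 0.04 and 0.008). In limma the luminal change of *Pthlh* passed with sort date as a block (adjusted p = 0.0415). With a pseudocount of 5 the luminal changes of *Tfrc* and *Pthlh* passed (0.0416 and 0.0234).

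With the sort date block all 10 differences passed. Without L10 basal replicate 6, only that of *Spock1* passed (adjusted p = 0.031), and those of *Krt23*, *Elovl5*, *Cdh2*, *Acat2*, *Cd4*, *Mal*, *Rspo1*, *Tfrc* and *Pthlh* were 0.056, 0.062, 0.072, 0.114, 0.14, 0.153, 0.209, 0.149 and 0.135. Of the 11 luminal and basal libraries left out in turn, the difference passed in 11 for *Spock1*, in 10 for *Krt23*, *Elovl5* and *Acat2*, in 8 for *Mal*, in 7 for *Rspo1*, in 5 for *Cdh2* and *Cd4*, in 3 for *Tfrc* and in 10 for *Pthlh*.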

How the results depend on the processing

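Called genes numbered 65, and 17 in edgeR on recovered reads, 116 with the replicate block by sort date, 122 with the replicate block by number and 36 to 209 with 1 library left out. Genes past an FDR of 0.05 numbered 342 (235 higher, 107 lower), and 202 (143 and 59) in edgeR, 533 (356 and 177) with the sort date block and 139 to 816 (79 to 540 and 50 to 276) with 1 library left out. With the spread of the 6 luminal libraries alone all of these counts were 0, in limma (1246 genes at an unadjusted p under 0.05), in limma with the replicate block (1249) and in edgeR (1207). The lower genes were 71 with a pseudocount of 0.1, 170 with 5, and 70 with milk protein genes removed. Without the basal libraries of involution day 2, a choice made after seeing the data like the block by number, edgeR on 6 libraries and the leave-outs of basal libraries, 119 genes were called and 535 passed (374 higher, 161 lower). The difference of luminal and basal change passed for 324 genes, 625 with the sort date block, 525 without those basal libraries and 58 to 1144 with 1 library left out. *Ltf*, at -0.03, turned to 0.093 in edgeR on 46 and on 6 libraries, 0.060 with the sort date block and lay between -0.485 and 0.316 with 1 library left out. Of the 63 named genes run under these settings, no other turned its direction. Further genes of the text, such as *Cited1* and *Esr1*, were not run under them. Of the 19 named genes with the largest changes, 13 passed an FDR of 0.05 without any 1 library, 14 in edgeR and 19 with the replicate block. Of all 31 named genes past an FDR of 0.05, the numbers were 13, 19 and 31, so that each of the other named calls was lost in at least 1 leave-out. Apart from single left-out libraries and the spread of 6 libraries, calls of named genes were lost in edgeR for *Drd4*, *Slc13a2*, *Mal*, *Pik3ap1*, *Mmp25*, *Itga2*, *Il1rn*, *Acss2*, *Cd4*, *Pgr*, *Ghr* and *Acsl4*, with a pseudocount of 0.1 for *Drd4*, *Slc13a2*, *Mmp25*, *Cd4* and *Acsl4*, with a pseudocount of 5 for *Krt23*, *Tnfsf11* and *Pgr*, with the spread of the 24 luminal libraries for *Il1rn*, *Cd4*, *Tnfsf11*, *Pgr*, *Ghr* and *Acsl4*, and with milk protein genes removed for *Acsl4*. The cause of these shifts was not tested. Depth limits the genes near 3 reads, 0.217 to 1.05 CPM.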

Other observations

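Of the 48 genes called higher at L10, Id2 had the lowest mean of the 6 other luminal time points for 22, beside 4759 of all 17078 genes. Of the 17 genes called lower, Id2 had the highest mean of the 6 others for 11, beside 5003 of all genes. These are counts without a test.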
